A study of Mus musculus with 2 samples.

Results

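The 10 genes described here encode the TGF-β ligands, Tgfb1, Tgfb2, and Tgfb3, the latent TGF-β binding proteins, Ltbp1, Ltbp2, Ltbp3, and Ltbp4, and the TGF-β receptors, Tgfbr1, Tgfbr2, and Tgfbr3. They were taken by gene symbol from the 32288 features of a mouse scRNA-Seq dataset, and all 10 were found once. The dataset holds cells of femur and tibia periosteum, the fibrous sheet on the outer bone surface, from wild-type C57BL6 mice at 4 weeks of age that carried no listed transgene or treatment. Cells were sorted as CD45-CD31-Ter119-, a gate meant to leave out blood, endothelial, and red lineage cells, and were run on the 10x Chromium 3′ v3.1 system as 2 libraries, replicates 1 and 2 of 1 condition. How many mice stand behind each library is not given, so p-values below measure the spread between these 2 libraries, which may be technical.

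TGF-β is made as a precursor whose propeptide stays wrapped around the growth factor and keeps it inactive. Latent TGF-β binding proteins are bonded to that propeptide and anchor the complex in the matrix, from which integrins, proteases, and other proteins release the active ligand. Active ligand is bound by the type II receptor, Tgfbr2, which phosphorylates the type I receptor, Tgfbr1, while Tgfbr3 (betaglycan) is a coreceptor that presents ligand. In bone, matrix-stored TGF-β is known for its roles in growth plate cartilage, osteoblasts, and bone remodeling.

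In GENCODE M21 on GRCm38, Tgfb1 lies on chromosome 7 at 25687002-25705077, plus strand, and Tgfb2 on chromosome 1 at 186622792-186705989, minus strand. The sequences just upstream of these ligand genes are shown because the transcripts differed most in their distribution between blood and stromal cells, as given below. Both are the 250 bases before the RefSeq start on GRCm38.p6, written 5′ to 3′ on the gene's strand, chr7:25686752-25687001 for Tgfb1 and chr1:186705990-186706239 for Tgfb2. Capitals mark motifs. The first is the GC box, searched as the letters GGGCGG on either strand of the stretch. The second is the TATA motif, searched as the letters TATAAA on either strand of the stretch. The third is the E-box, searched as the letters CACGTG, which read the same on both strands.
Tgfb1: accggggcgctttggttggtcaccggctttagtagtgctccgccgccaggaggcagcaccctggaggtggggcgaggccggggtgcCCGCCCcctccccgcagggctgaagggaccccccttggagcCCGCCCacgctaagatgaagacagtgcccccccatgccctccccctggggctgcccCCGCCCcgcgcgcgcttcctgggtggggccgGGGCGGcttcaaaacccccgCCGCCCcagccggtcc
Tgfb2: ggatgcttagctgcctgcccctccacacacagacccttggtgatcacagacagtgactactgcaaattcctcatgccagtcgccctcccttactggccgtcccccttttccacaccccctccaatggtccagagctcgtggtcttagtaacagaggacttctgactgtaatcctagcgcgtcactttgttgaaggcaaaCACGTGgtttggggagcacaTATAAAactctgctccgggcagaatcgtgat
The Tgfb1 stretch held 5 GC boxes, no TATA motif, and no E-box at 75.2% GC. The Tgfb2 stretch held no GC box, 1 TATA motif starting 31 bases before the start site, and 1 E-box at 53.6% GC. Of 32841 RefSeq promoters of this length, 32.7% held a GC box, 12.4% a TATA motif, and 6.02% an E-box. Among the 8 of 10 genes with a listed promoter (12 start sites), 6 start sites had a GC box and 11 lacked the TATA motif. These motifs were chosen after the sequences had been seen, and a match is a string of letters, not a measured binding site.

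Of 9932 and 3659 barcodes (100808649 and 33306452 UMIs), 6276 and 2893 cells passed the filters on genes, UMIs, and mitochondrial counts, with medians of 8164 and 6279 UMIs per cell. The libraries differed in makeup, with 445 stromal cells (7.09%) in library 1 and 1123 (38.8%) in library 2, and all other cells carried blood cell genes despite the gate. They shared 8 barcodes, 7 of them among the kept cells. Clusters were named from fixed markers, without the 10 genes or their pathway lists. Classes that reached 10 cells in both libraries were periosteal skeletal stem cell (P-SSC)-like (21 and 294 cells in libraries 1 and 2), osteoblast-like (91 and 185), osteogenic progenitor-like (34 and 62), chondrocyte-like (27 and 120), skeletal muscle-like, and 7 blood classes. The osteogenic progenitor-like class found 3 of its markers, Alpl, Mmp13, and Kcnk2, and was led by Mmp9 and Hist1h2ap, so its name is weakly supported. The 10 P-SSC markers were Pi16, Dpp4, Ly6a, Cd34, Clec3b, Mfap5, Pdgfra, Ly6c1, Dpt, and Col14a1. They leave out Prrx1, Lrp1, and CD13, which the study reported in its mouse Prx1+ P-SSC clusters. The match of this class to those clusters and its stem cell function were not tested. Osteoblast-like and chondrocyte-like cells had UMIs of all their listed markers (8 of 8 and 9 of 9) in both libraries, and P-SSC-like cells of all 10. Detection alone says little, since erythroid-like cells also had UMIs of all 10 P-SSC markers. Summed, these markers reached 11182 and 13005 CPM in P-SSC-like, 4.69 and 49.8 CPM in erythroid-like, and 110 and 162 CPM in osteoblast-like cells. Osteoblast-like cells had 38276 and 27930 CPM over their own markers, and chondrocyte-like cells 91594 and 65020 CPM over theirs.

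All levels are UMIs scaled to the total of the class in each library, as counts per 1e6 UMIs (CPM). Because 3′ libraries give 1 tag per captured transcript, transcript length does not enter, although capture can still differ between genes. Intervals in parentheses after a CPM are 95% exact Poisson intervals and cover counting error only. Folds and tests come from edgeR's quasi-likelihood test on UMIs summed per class and library, with Benjamini-Hochberg adjustment over 12937 genes, and differences are log2 fold changes with their SE (n = 2 libraries per class). This fit has no term for the library, so shifts shared by the classes of a library stay in its spread. The alternative with the library as a replicate block takes them out.

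Averaged over classes, the 4 stromal classes had more Tgfb2, Tgfb3, latent binding protein, and Tgfbr3 transcripts than the 7 blood classes. They had somewhat more Tgfbr2, and less Tgfb1 and Tgfbr1. In this comparison 8 of the 10 genes were higher and 2 lower, where 62.4% of all genes tested passed in either direction, so the count by itself says little. The median log2 fold change was 5.25 over the 10 genes and -0.08 over all genes tested. Tgfb1, the ligand most often found in blood cells, was the clearest exception. Its pooled level was 144 CPM in stromal and 148 CPM in blood cells of library 1, and 123 and 194 CPM in library 2. Averaged over classes it was lower in stroma by a log2 fold change of -0.96 (SE 0.19, edgeR adjusted p = 0.000209). The pooled level of Tgfbr1 was not lower in stroma in library 1 (25.8 CPM against 20.6 CPM in blood) and was near equal in library 2 (28.8 and 29.2 CPM).

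Among ligands, Tgfb1 was spread over nearly every class, and its highest levels were in lymphoid cells. Mature B cell-like cells had 367 and 311 CPM of Tgfb1 in libraries 1 and 2, and T/NK cell-like cells 316 and 333 CPM. Precursor B cell-like cells had 281 and 232 CPM, and monocyte/macrophage-like cells 272 and 237 CPM. Osteoblast-like cells came next with 209 CPM (192-228) and 252 CPM (234-270), overlapping the values of the monocyte/macrophage-like and precursor B cell-like classes. Neighbors in this upper part of the order overlapped between libraries, so their ranks are not resolved. Below them stood neutrophil progenitor-like cells at 151 and 175 CPM and osteogenic progenitor-like cells at 144 and 171 CPM. Erythroid-like cells (79.8 and 109 CPM) and chondrocyte-like cells (76.99 and 83.7 CPM) again overlapped. Neutrophil-like cells at 53.3 and 43.3 CPM and P-SSC-like cells at 51.6 and 37.8 CPM closed the order of classes with a test, apart from skeletal muscle-like cells with 2 Tgfb1 UMIs in all. Within blood, Tgfb1 differed between classes (edgeR adjusted p = 0.00603), and at a clustering resolution of 0.4 this call was lost (adjusted p = 0.145). T/NK cell-like cells were above the other blood classes by 0.76 (SE 0.30), which missed the threshold (edgeR adjusted p = 0.107) and passed it with the library as a replicate block (adjusted p = 0.0243) and with DESeq2 (0.000789).

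Tgfb1 separated the stromal classes. Osteoblast-like cells were higher than the mean of the other 3 stromal classes by 1.89 on the log2 scale (SE 0.31, edgeR adjusted p = 0.00051). P-SSC-like cells were lower by -2.18 (SE 0.40, edgeR adjusted p = 0.000552), a call that did not hold once skeletal muscle-like cells, which barely carry the gene, were counted as stroma (-0.98, adjusted p = 0.104). From 1 library alone, on a log2(CPM + 1) scale with no test, the P-SSC-like difference was -1.34 in library 1 and -1.99 in library 2. In osteoblast-like cells the same values were 1.32 and 1.61.

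Tgfb2 had nearly the opposite distribution. Chondrocyte-like cells had 119 CPM (97.4-143, 108 UMIs) and 76.8 CPM (68.1-86.4, 278 UMIs), and P-SSC-like cells 92.2 CPM (59.6-136) and 97.3 CPM (86.0-110). Their ranges overlapped, so the order of these classes is open. Osteogenic progenitor-like cells had 10.7 and 33.0 CPM, and osteoblast-like cells 4.43 and 12.3 CPM. In blood the 14 class sums ran from 0 to 4.54 CPM with 28 UMIs in all, 7 of them at 0, and within each library every one of the 4 stromal classes was above every blood class. The pooled stromal level was 64.5 CPM against 0.197 CPM in blood in library 1, a ratio of 326, and 87.9 against 0.674 CPM in library 2, a ratio of 130. The difference over classes passed the test (edgeR adjusted p = 1.90e-09). Chondrocyte-like cells were above the other stromal classes by 2.11 (SE 0.66, edgeR adjusted p = 0.0319), but this call was under 0.05 in only 6 of 12 alternative settings, and the single-library values were 2.73 in library 1 and 1.14 in library 2. With the replicate block, Tgfb2 was also called higher in P-SSC-like cells (1.35, edgeR adjusted p = 0.0492 against 0.177 without it) and lower in osteoblast-like cells (-2.52, adjusted p = 0.00597 against 0.0797), and the osteoblast-like difference passed under some other settings as well, such as resolution 1.2 (0.0202).

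The highest Tgfb2 level lay outside the named classes, in a small stromal cluster led by Tcim and Ddit4l in which the hypertrophic chondrocyte markers Col10a1 and Ihh were found. Its 17 and 48 cells held 411 CPM (349-480, 158 UMIs) and 372 CPM (338-409, 434 UMIs) of Tgfb2. Neither interval reached that of any other class with at least 10 cells in a library. Smooth muscle-like cells of library 1, with 4 UMIs in 4 cells, had 168 CPM and a wide interval (45.9-431) that overlapped both. Only 2 markers of that list were found, so the cluster is left without a name. When it and the other unnamed stromal clusters were entered as classes, an alternative added after the data had been seen, the chondrocyte-like difference fell to 0.85 (edgeR adjusted p = 0.392).

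Tgfb3 was the scarcest ligand and the one on which the libraries disagreed. Osteogenic progenitor-like cells had 48.1 CPM (28.5-76.1) and 50.1 CPM (35.9-67.9), osteoblast-like cells 12.5 and 14.3 CPM, and chondrocyte-like cells 6.60 and 8.84 CPM. P-SSC-like cells had 3.69 CPM (0.0933-20.5, 1 UMI in 21 cells) in library 1 and 70.8 CPM (61.2-81.4, 195 UMIs in 294 cells) in library 2. These intervals do not touch. In library 2 the subcluster of P-SSC-like cells led by Mfap4 and Eln had 123 CPM (102-147) and the one led by Pi16 and Mfap5 had 42.6 CPM (33.5-53.3). Library 1 held 4 and 17 cells of these subclusters, with 1 Tgfb3 UMI in the former and none in the latter, where a count of 0 has an upper limit of 16.3 CPM. The P-SSC-like difference from other stroma changed sign between libraries (-1.87 in library 1 alone and 1.86 in library 2 alone). Among the stromal classes Tgfb3 did not pass the test (edgeR adjusted p = 0.129, or 0.0222 with the replicate block). With the same block it was called lower in chondrocyte-like cells (-1.82, adjusted p = 0.0231 against 0.125 without it), as it was without integration (-1.91, adjusted p = 0.0363). In blood the 14 sums ran from 0 to 5.23 CPM with 23 UMIs in all, and the stromal classes were higher (edgeR adjusted p = 5.32e-09). Tenocyte-like cells, of which library 1 held 2, had 81.8 CPM in library 2.

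**Figure D1:**
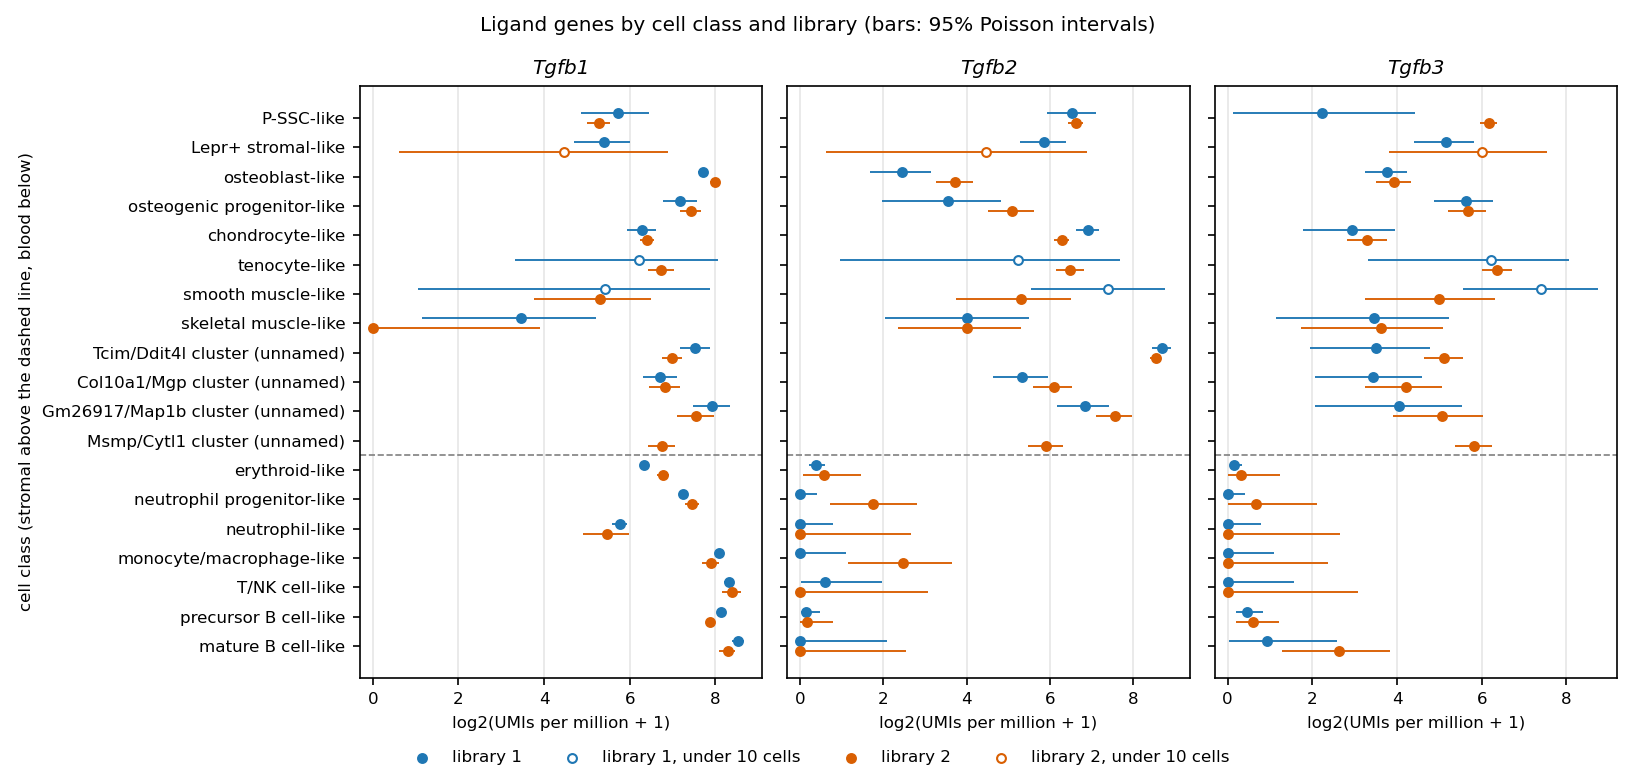
Level of each ligand gene as log2(CPM + 1) by cell class, stromal classes above the dashed line and blood below, with 1 point per library (open where the class has under 10 cells) and 95% Poisson intervals. Tgfb1 points lie to the right in most blood classes and in osteoblast-like cells, Tgfb2 is highest in the Tcim/Ddit4l cluster (411 and 372 CPM), and Tgfb3 of P-SSC-like cells differs between libraries (3.69 and 70.8 CPM).

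The share of each gene among the ligand UMIs of a class shows the same contrast within each class. In the 7 blood classes Tgfb1 made up 98.1% or more of ligand UMIs in each library. In osteoblast-like cells it made up 92.5% (exact binomial 95% interval 90.0-94.6) of 562 UMIs and 90.5% (88.3-92.4) of 840. Osteogenic progenitor-like cells were at 71.1% of 76 UMIs and 67.3% of 208, and the remainder there was mostly Tgfb3 (23.7% and 19.7%). In P-SSC-like cells Tgfb2 was the largest share in both libraries, 62.5% (45.8-77.3) of 40 UMIs and 47.3% (43.1-51.5) of 567, and Tgfb1 fell to 35.0% and 18.3%. Chondrocyte-like cells divided their UMIs between Tgfb2 (58.7% and 45.4%) and Tgfb1 (38.0% and 49.4%), in an order that turned between libraries. The Tcim/Ddit4l cluster had 67.8% and 69.9% Tgfb2. In Lepr+ stromal-like cells of library 1 the shares were 30.8% Tgfb1, 43.1% Tgfb2, and 26.2% Tgfb3 of 65 UMIs.

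**Figure D2:**
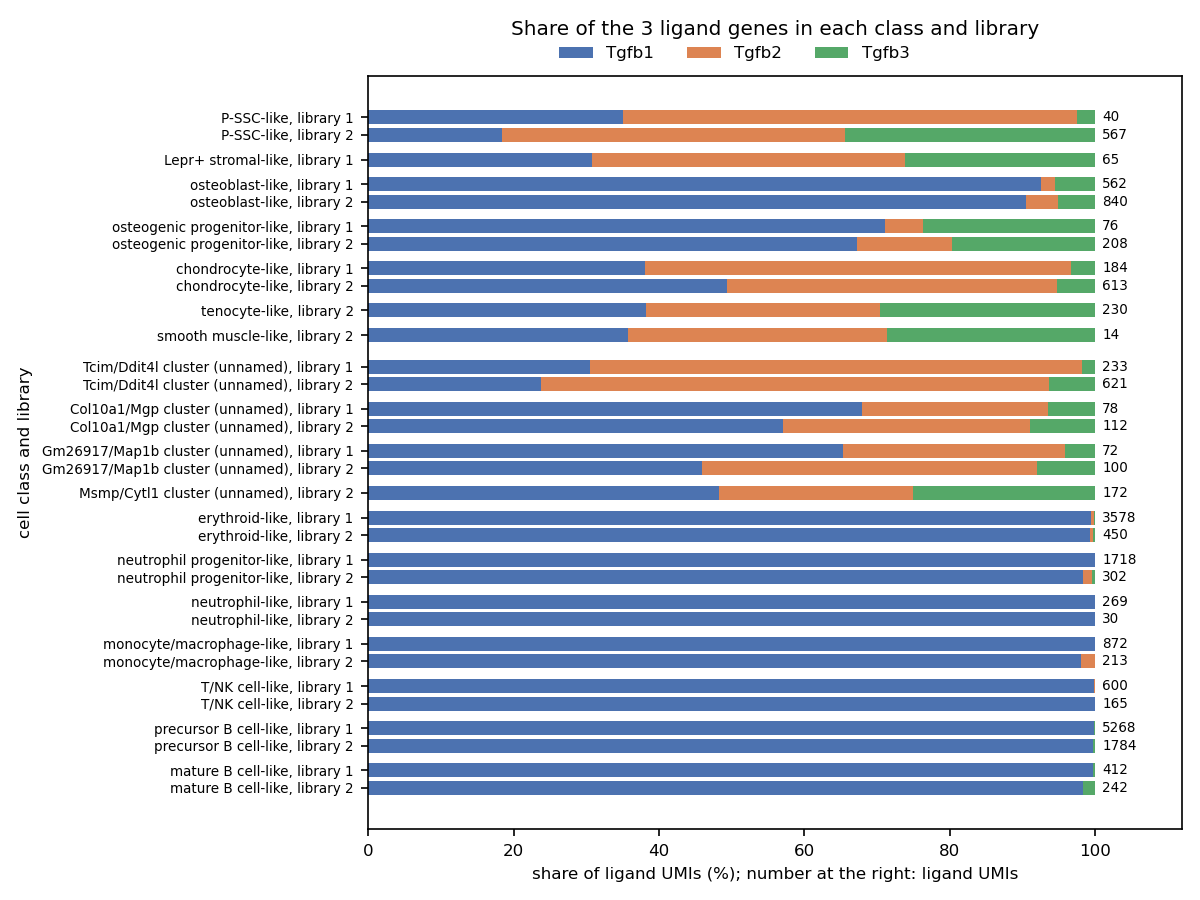
Share in percent of Tgfb1, Tgfb2, and Tgfb3 among ligand UMIs in each class and library with at least 10 ligand UMIs, with the number of ligand UMIs at the right. Blood bars are almost wholly Tgfb1, osteoblast-like bars are 92.5% and 90.5% Tgfb1, and bars of P-SSC-like, chondrocyte-like, tenocyte-like, and Tcim/Ddit4l cells carry large Tgfb2 shares.

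The latent binding protein genes were nearly absent from blood. Over the 14 blood sums, Ltbp1 had 50 UMIs, Ltbp2 15, Ltbp3 56, and Ltbp4 53, against 486, 105, 835, and 2407 UMIs in the 4 stromal classes, which held far fewer cells. Averaged over classes, all 4 genes were higher in stroma, but not in every stromal class. Of the 2407 Ltbp4 UMIs, 163 and 2209 lay in P-SSC-like cells of libraries 1 and 2. Chondrocyte-like Ltbp4 (0 and 0.276 CPM) lay within the blood range of 0 to 3.89 CPM. So did osteoblast-like Ltbp2 (0.402 and 0 CPM), whose blood range was 0 to 0.729 CPM. The edgeR adjusted p was 2.54e-08 for Ltbp1, 0.0033 for Ltbp2, 5.89e-11 for Ltbp3, and 0.034 for Ltbp4. With skeletal muscle-like cells counted as stroma, the differences of Ltbp1 and Ltbp2 were 4.85 and 4.23. That class held no UMI of either gene, so its log level has no fixed value and the test cannot decide there. The same holds for Ltbp2 with the unnamed clusters as classes (4.19), since a cluster led by Col10a1 and Mgp held no UMI of it. Ltbp4 lost the call at resolution 1.2 (adjusted p = 0.055) and without osteogenic progenitor-like cells (0.0584).

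Ltbp4, whose protein is also known for its part in elastic fiber assembly, marked P-SSC-like cells more sharply than any other of the 10 genes. Its level there was 601 CPM (512-701, 163 UMIs) in library 1 and 802 CPM (769-836, 2209 UMIs) in library 2. Osteoblast-like cells had 0.805 and 8.29 CPM, osteogenic progenitor-like cells 0 and 8.55 CPM, and chondrocyte-like cells 0 and 0.276 CPM (0 and 1 UMI). The lowest P-SSC-like value was thus above every value of the other tested classes. Of the P-SSC-like cells, 95.2% and 90.8% carried a UMI of Ltbp4 (median depth 12361 and 9192 UMIs), against 0.0591% and 2.35% of erythroid-like cells (15908 and 12946 UMIs). Thinned to 1000 UMIs per cell, these shares were 39.5% and 51.0% against 0.00203% and 0.286%. P-SSC-like cells exceeded the other stromal classes by 8.14 on the log2 scale (SE 1.03, edgeR adjusted p = 7.78e-06), or by 8.95 in library 1 and 7.38 in library 2 alone. Smooth muscle-like cells had 126 CPM from 3 UMIs in 4 cells and 193 CPM from 25 UMIs in 21 cells. Tenocyte-like cells had 700 CPM (421-1093) from 19 UMIs in 2 cells of library 1, an interval that held the P-SSC-like value of that library. In library 2 they had 191 CPM (163-223).

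Among classes of the fit, Ltbp1 had the same leading class at a lower level. P-SSC-like cells had 159 CPM (115-214) and 116 CPM (103-129), a difference of 3.62 from the other stromal classes (SE 0.51, edgeR adjusted p = 8.61e-05). Osteoblast-like cells (24.1 and 12.6 CPM) and osteogenic progenitor-like cells (24.1 and 11.0 CPM) could not be told apart. Chondrocyte-like cells had no UMI in library 1 and 8 UMIs, 2.21 CPM, in library 2, and were lower than the other stromal classes (-4.17, SE 0.77, edgeR adjusted p = 0.00116). The size of that difference rests on 8 UMIs, and it was -5.54 in library 1 and -3.06 in library 2 alone. With skeletal muscle-like cells as stroma it was -1.65. Those cells held no UMI of Ltbp1, so the test cannot decide there.

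Ltbp3 was the most evenly spread of the latent binding protein genes. P-SSC-like cells had 125 and 148 CPM, osteogenic progenitor-like cells 85.6 and 67.2 CPM, osteoblast-like cells 39.8 and 47.1 CPM, and chondrocyte-like cells 14.3 and 14.1 CPM. These 4 classes kept 1 order in both libraries with no overlap of their values, and the lowest stromal value was above the highest blood value, 8.07 CPM in T/NK cell-like cells. The P-SSC-like difference of 1.49 (SE 0.53) narrowly missed the threshold (edgeR adjusted p = 0.0536) and passed it under several other settings, among them the replicate block (adjusted p = 0.00739) and DESeq2 (0.0158). Chondrocyte-like cells were lower by -2.20 (SE 0.66, edgeR adjusted p = 0.0254), which was -1.42 and not called with skeletal muscle-like cells as stroma (adjusted p = 0.163). Ltbp3 supplied 92.9% of 14 and 63.0% of 81 latent binding protein UMIs in chondrocyte-like cells and 61.1% of 162 and 69.3% of 205 in osteoblast-like cells. In P-SSC-like cells Ltbp4 supplied 66.0% of 247 and 73.8% of 2993. The Tcim/Ddit4l cluster had 265 and 149 CPM of Ltbp3, tenocyte-like cells 197 CPM in library 2, and a stromal cluster led by Col10a1 and Mgp 118 and 106 CPM. Another unnamed stromal cluster, led by Gm26917 and Map1b (31 and 48 cells), had 180 CPM (126-251) and 232 CPM (176-301).

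Ltbp2, unlike the other 3 genes, codes for a protein that does not bind latent TGF-β and is associated with fibrillin microfibrils. Among the tested classes its levels were low. P-SSC-like cells had 25.8 and 20.3 CPM from 7 and 56 UMIs, and osteogenic progenitor-like cells 45.5 and 2.44 CPM from 17 and 2 UMIs. The P-SSC-like difference was 2.66 (SE 0.86, edgeR adjusted p = 0.0364) and was lost in 3 of 12 alternative settings. Osteoblast-like cells held 1 UMI of Ltbp2 in 276 cells of both libraries and were lower (edgeR adjusted p = 0.0156), a call lost without integration (adjusted p = 0.245). With skeletal muscle-like cells as stroma, or with the unnamed clusters as classes, a class without any Ltbp2 UMI enters and the test cannot decide. The fitted size of that difference depends on the single UMI and is not given.

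Ltbp2 stood highest in Lepr+ stromal-like cells, a class with 70 cells in library 1 and 9 in library 2 and therefore outside the main fit. Their Ltbp2 level was 270 CPM (226-320, 132 UMIs) and 126 CPM (46.3-275, 6 UMIs). With the minimum lowered to 5 cells per library, an alternative added after the data had been seen, Ltbp2 was higher in Lepr+ stromal-like cells than in the other stromal classes by 4.95 (SE 0.66, edgeR adjusted p = 3.34e-05), as were Tgfbr3 by 4.03 (SE 0.37, adjusted p = 1.32e-07) and Ltbp1 by 2.00 (SE 0.53, adjusted p = 0.0189), while Tgfb1 was lower (-2.17, SE 0.48, adjusted p = 0.00394). In that fit 11.1% of all genes tested passed in either direction, and 4 of the 10 genes did. At resolution 0.4, where the class reached 10 cells in both libraries, Ltbp2 (3.65, edgeR adjusted p = 0.000934) and Tgfbr3 (2.27, adjusted p = 0.00131) passed, beside 8.32% of all genes, and Ltbp1 (adjusted p = 0.184) and Tgfb1 (adjusted p = 0.973) did not. Ltbp4 had no UMI in the 70 cells of library 1 (upper limit 7.55 CPM) and 22 UMIs, 463 CPM, in the 9 cells of library 2. The 9 cells of library 2 had 2841 CPM over the 10 P-SSC markers with 8 detected (Pi16 and Dpp4 at 0), against 282 CPM with 3 detected in library 1. Hbb-bs, a hemoglobin gene, made up their blood marker sum of 109285 CPM. The part of these markers in the difference was not tested. In osteogenic progenitor-like cells the Lepr+ marker sum was 3030 CPM in library 1 (9 of 9 detected) and 508 CPM in library 2 (8 of 9, Adipoq at 0), next to Ltbp2 levels of 45.5 and 2.44 CPM, and the blood marker sum was 14210 and 125 CPM; their part in the Ltbp2 difference was not tested either.

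**Figure D3:**
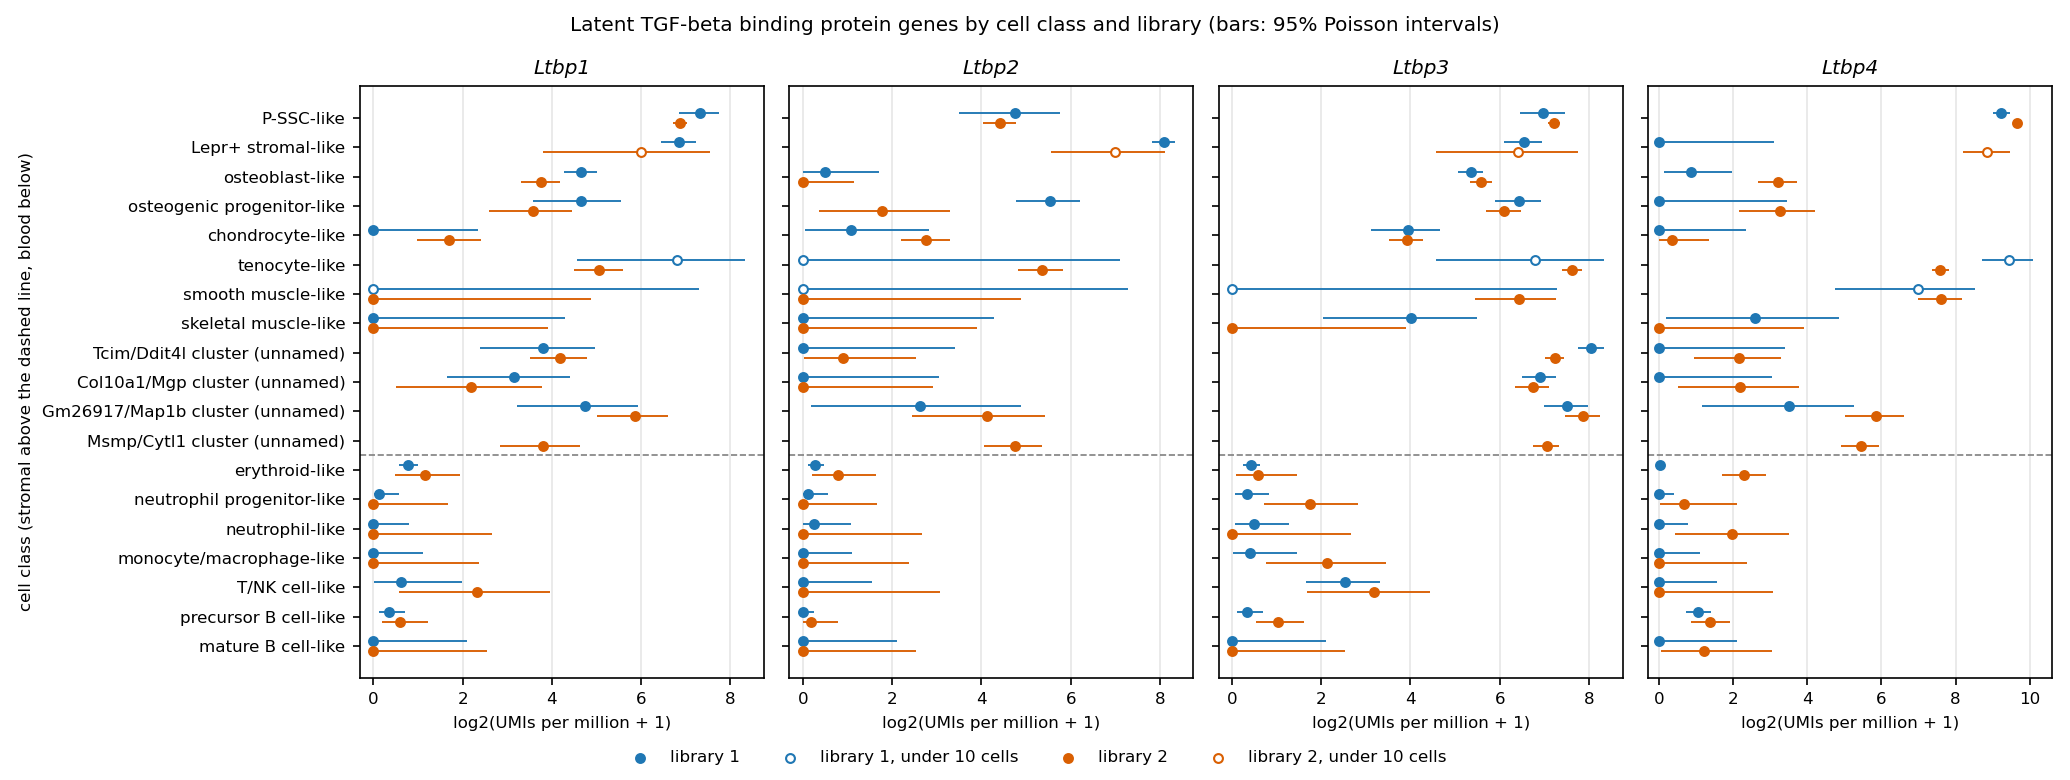
Level of each latent binding protein gene as log2(CPM + 1) by cell class, with 1 point per library (open where the class has under 10 cells) and 95% Poisson intervals. P-SSC-like cells lead for Ltbp4 among classes of the fit (601 and 802 CPM), and the open tenocyte-like point of library 1 lies at 700 CPM from 2 cells. Lepr+ stromal-like cells lead for Ltbp2 (270 and 126 CPM), and blood classes lie near 0 for all 4 genes.

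Receptor genes were found in both compartments. Tgfbr1, the type I receptor kinase, ran from 5.10 to 80.6 CPM over blood sums and from 8.80 to 44.2 CPM over the sums of the 4 stromal classes. Among classes of the fit, monocyte/macrophage-like cells were highest with 80.6 CPM (71.0-91.0) and 74.9 CPM (57.9-95.3), above the other blood classes by 1.41 (SE 0.28, edgeR adjusted p = 0.0011). Tgfbr1 was the only one of the 10 genes called in that comparison, where 15.1% of all genes passed. Tgfb3, Ltbp1, Ltbp2, and Ltbp4 had no UMI in these cells or in some other blood classes, so the test could not decide for them. Outside the fit, tenocyte-like cells had 111 CPM from 3 UMIs in 2 cells of library 1. In library 2 they had 68.5 CPM (51.9-88.8), overlapping the monocyte/macrophage-like interval. P-SSC-like cells had 44.2 and 37.0 CPM, neutrophil-like cells 44.0 and 56.3 CPM, and precursor B cell-like cells 38.3 and 36.4 CPM, with overlapping intervals. Erythroid-like cells (5.50 and 5.10 CPM) and chondrocyte-like cells (8.80 and 11.1 CPM) had low levels, and skeletal muscle-like cells, outside these comparisons, held 1 UMI in all (5.03 and 0 CPM). Chondrocyte-like cells were below the other stromal classes by -1.40 (SE 0.39, edgeR adjusted p = 0.0171), a call lost with skeletal muscle-like cells as stroma (-0.54, adjusted p = 0.504) and with the unnamed clusters as classes (-1.15, 0.0537). The slight deficit of Tgfbr1 in stroma against blood (-0.49, SE 0.20, edgeR adjusted p = 0.0343) was under 0.05 in only 5 of 12 alternative settings, with adjusted p up to 0.39.

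Tgfbr2, the type II receptor, had its highest stromal level in P-SSC-like cells and its highest blood level in B cells. P-SSC-like cells had 299 CPM (237-371) and 226 CPM (209-245), mature B cell-like cells 218 and 132 CPM, and precursor B cell-like cells 90.3 and 55.8 CPM. No other class of the fit was above 39.7 CPM, and the other 3 of the 4 stromal classes lay between 16.9 and 36.8 CPM. Within the fit, neutrophil progenitor-like cells (5.63 and 2.95 CPM) and erythroid-like cells (3.21 and 1.70 CPM) were lowest. Outside it, an unnamed cluster placed with stroma but led by the B cell genes Igkc and Cd79b (11 and 27 cells) had 203 and 190 CPM. It also held 46.2 and 365 CPM of Ltbp4, and whether B cells were mixed into it was not tested. Lepr+ stromal-like cells had 83.9 and 126 CPM, and tenocyte-like cells 98.6 CPM in library 2. The Tcim/Ddit4l cluster (36.4 and 36.0 CPM) and the cluster led by Col10a1 and Mgp (3.93 and 0 CPM) had less. The P-SSC-like difference was 2.71 (SE 0.35, edgeR adjusted p = 1.80e-05). In library 2 it was found in both P-SSC-like subclusters, at 270 CPM in the one led by Pi16 and 145 CPM in the one led by Mfap4. Differences between blood classes were also called (edgeR adjusted p = 3.86e-07). Stroma exceeded blood by 0.91 (SE 0.21, edgeR adjusted p = 0.000834), a difference not called with the unnamed clusters as classes (adjusted p = 0.704). Osteoblast-like cells, at 31.4 and 16.9 CPM, missed the threshold against other stroma (edgeR adjusted p = 0.169) and passed it as lower with the replicate block (-1.05, adjusted p = 0.0452), with DESeq2 (0.038), at resolutions 0.4 and 1.2 (0.0351 and 0.0247), without integration (0.0434), and without osteogenic progenitor-like cells (0.0362), while with the unnamed clusters as classes the difference was 0.055 (adjusted p = 1).

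Tgfbr3, the coreceptor betaglycan, was the receptor gene most unevenly spread. Lepr+ stromal-like cells had 399 CPM (345-459, 195 UMIs) in library 1 and 147 CPM (59.2-304, 7 UMIs) in library 2. P-SSC-like cells had 147 CPM (105-201) and 131 CPM (118-145), and tenocyte-like cells 120 CPM in library 2. Osteogenic progenitor-like cells (34.8 and 13.4 CPM) and chondrocyte-like cells (16.5 and 14.7 CPM) overlapped. Osteoblast-like cells held 1 UMI in each library, 0.402 and 0.331 CPM, and of the blood classes the neutrophil-like class alone was lower in both libraries (0.198 and 0 CPM). P-SSC-like cells were above the other stromal classes by 4.29 (SE 0.39, edgeR adjusted p = 1.38e-07) and osteoblast-like cells below them (edgeR adjusted p = 2.04e-06). T/NK cell-like cells, at 6.86 and 10.1 CPM, were above the other blood classes by 2.16 (SE 0.47, edgeR adjusted p = 0.0031). With Ltbp3 (9 and 4 UMIs, edgeR adjusted p = 0.00822), these were the 2 genes called in that comparison, where 11.8% of all genes passed. The test could not decide for Tgfb3, Ltbp2, and Ltbp4, which had no UMI in T/NK cell-like cells or in some other blood classes. T/NK cell-like cells also had 160 and 194 CPM over the P-SSC markers, with Pdgfra, Ly6c1, Dpt, and Col14a1 at 0 in both libraries.

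A cell can respond only if it has both kinase receptors, and cells with at least 1 UMI of each were counted. They made up 47.6% (exact binomial 95% interval 25.7-70.2) of P-SSC-like cells in library 1 and 19.4% (15.03-24.4) in library 2. Osteoblast-like cells had 22.0% and 9.19%, monocyte/macrophage-like cells 15.6% and 23.3%, and erythroid-like cells, which have low levels of both genes, 1.48% and 1.76%. The share in the Tcim/Ddit4l cluster was 41.2% and 35.4% at median depths of 21816 and 25307 UMIs. These shares move with depth, whose medians were 12361 and 9192 UMIs in P-SSC-like and 28972 and 14605 UMIs in osteoblast-like cells, so no order between classes is read from them.

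**Figure D4:**
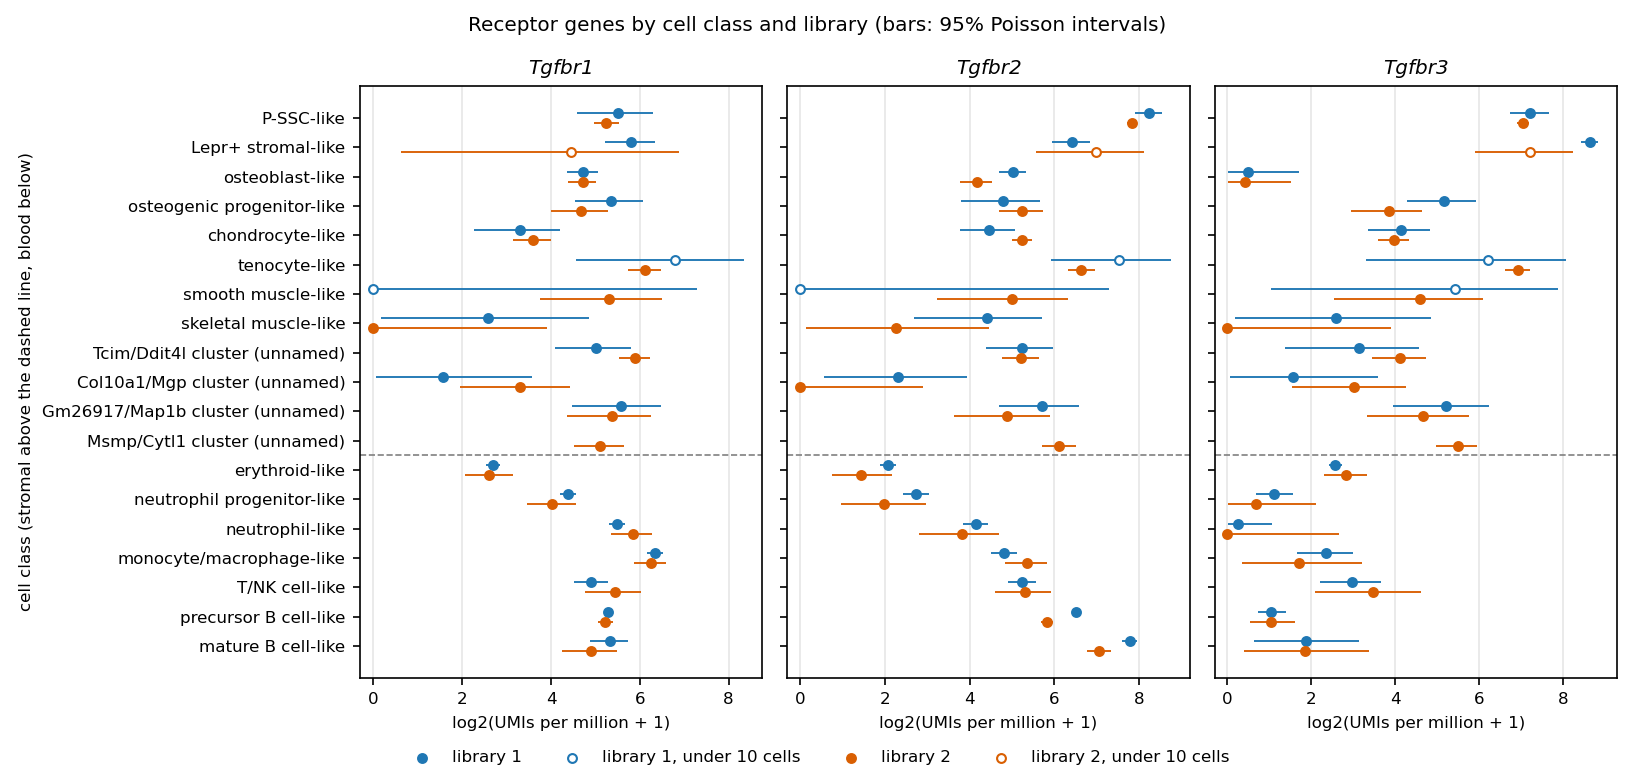
Level of each receptor gene as log2(CPM + 1) by cell class, with 1 point per library (open where the class has under 10 cells) and 95% Poisson intervals. Among classes of the fit, Tgfbr1 is highest in monocyte/macrophage-like cells (80.6 and 74.9 CPM). The open tenocyte-like point of library 1 lies at 111 CPM from 3 UMIs in 2 cells. Tgfbr2 is highest in P-SSC-like cells (299 and 226 CPM) and Tgfbr3 in Lepr+ stromal-like cells (399 and 147 CPM), while osteoblast-like cells have 1 UMI of Tgfbr3 per library.

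Within stroma as a whole, 8 of the 10 genes differed among the 4 classes, where 28.4% of all genes tested did. The exceptions were Tgfb3 and Tgfbr1 (edgeR adjusted p = 0.129 and 0.0552). Both passed with the replicate block (0.0222 and 0.011) and without the filter on low counts (0.038 and 0.0479). Tgfb3 otherwise passed only without integration (0.0172). Tgfbr1 passed in all other settings with a test, such as DESeq2 (0.000284), except without integration (0.0506) and with at least 5 cells per library (0.0969). Of the 8, Tgfb2 was lost with DESeq2 (adjusted p = 0.273) and at resolution 0.4 (edgeR adjusted p = 0.0901). Ltbp3 was lost at resolution 0.4 (edgeR adjusted p = 0.0692) and with at least 5 cells per library (0.0553). In P-SSC-like cells 5 of the genes were higher and 1 lower than in other stroma, against 18.9% of all genes called in either direction, with a median log2 fold change of 2.07 over the 10 genes and -0.08 over all genes. In osteoblast-like cells 1 was higher and 2 lower, beside 8.59% of all genes, with medians of -0.63 and 0.05. In chondrocyte-like cells 1 was higher and 4 lower, beside 16.1% of all genes, with a median of -1.08 over the 10 genes. Chondrocyte-like cells held 1 UMI of Ltbp4 in all, so that the fitted size of its difference (edgeR adjusted p = 0.0234) is not given, and the call was lost with DESeq2 (0.0532) and with skeletal muscle-like cells as stroma (0.109). Among blood classes 6 of the 10 genes differed, beside 67.7% of all genes. Of the 6, Ltbp1 (edgeR adjusted p = 0.0448) was lost with the replicate block (0.0539), with RLE (0.0655), and at resolution 1.2 (0.0867). Ltbp3 (edgeR adjusted p = 0.0317) was lost at resolutions 0.4 and 1.2 (0.0573 and 0.056) and without integration (0.0909), and Tgfb1 at resolution 0.4 (0.145).

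**Figure D5:**
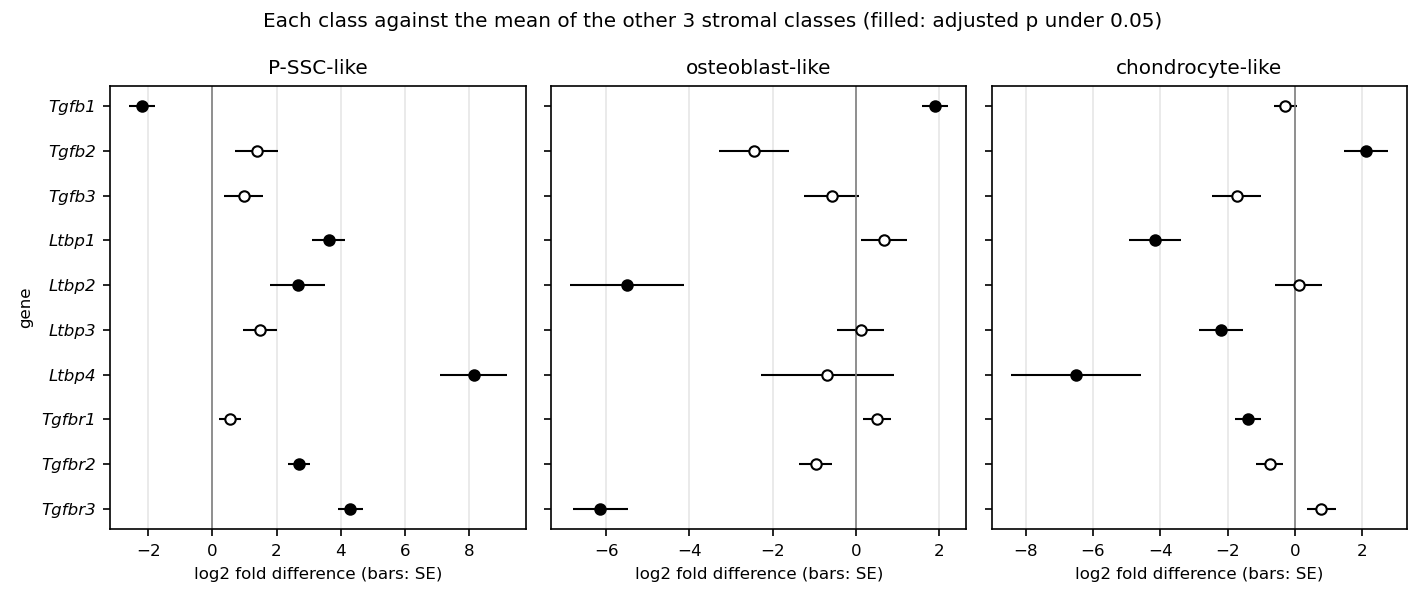
Fitted log2 fold difference of each gene between P-SSC-like, osteoblast-like, or chondrocyte-like cells and the mean of the other 3 stromal classes, with SE bars, filled where the edgeR adjusted p is under 0.05. P-SSC-like cells show 5 filled points above 0 and Tgfb1 below it, and the far left points of Ltbp2 and Tgfbr3 in osteoblast-like cells and of Ltbp4 in chondrocyte-like cells each rest on 1 or 2 UMIs in that class.

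Genes that release, hold, or transmit TGF-β were read from 6 lists. Of the 12 listed activation and storage genes, 11 were tested, since Itgb6 had too few UMIs, and 7 were higher and 1 lower in stroma than in blood, beside 62.4% of all genes called in either direction. Their median log2 fold change was 3.29, against -0.08 over all genes. The lower one was Nrros, which is known to tether latent TGF-β on myeloid cells, with 0 to 3.69 CPM over the sums of the 4 stromal classes. Among the 12 classes of the fit its highest levels were 211 and 184 CPM in mature B cell-like cells, followed by 162 and 135 CPM in monocyte/macrophage-like cells. In P-SSC-like cells 5 of the 11 were higher than in other stroma and none lower, beside 18.9% of all genes, with a median log2 fold change of 0.21 against -0.08 over all genes. Fbn1, the fibrillin to which latent binding proteins attach, was at 2496 and 1027 CPM there (difference 6.24, SE 0.68, edgeR adjusted p = 1.04e-06). Lrrc32, which encodes the surface anchor GARP, was at 25.8 and 19.96 CPM (6.20, SE 1.13, edgeR adjusted p = 0.000416). It was at 0.402 and 0 CPM in osteoblast-like, 0 in both libraries in osteogenic progenitor-like, and 3.30 and 0.829 CPM in chondrocyte-like cells. With levels this near 0, the fitted size of that difference is uncertain. The integrin subunits Itgb3, Itgb5, and Itgb8 were also higher, Itgb8 at only 11.1 and 6.53 CPM. In chondrocyte-like cells 2 of the 11 were higher and 7 lower, beside 16.1% of all genes, Fbn1 among the latter (-3.78, edgeR adjusted p = 0.00689), while Thbs1, thrombospondin 1, was higher (2.60, SE 0.51, adjusted p = 0.00107) at 651 and 340 CPM.

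Of 5 coreceptor and pseudoreceptor genes, 4 were higher in stroma than in blood and none lower, again beside 62.4% of all genes, with a median log2 fold change of 3.85. P-SSC-like cells had more Acvrl1, the type I receptor ALK1 (84.8 and 54.4 CPM, difference 5.33, SE 0.57, edgeR adjusted p = 1.77e-06), and more Eng, its coreceptor endoglin (1.87, edgeR adjusted p = 0.00997). They had less Bambi, a kinase-dead receptor that blocks signaling (11.1 and 30.1 CPM, -3.55, edgeR adjusted p = 4.54e-05). Osteoblast-like cells had the most Bambi, 509 and 543 CPM, 3.20 above other stroma (SE 0.36, edgeR adjusted p = 5.52e-06).

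Of 6 signal transducers, 4 were higher and 1 lower in stroma than in blood, and the 62.4% of all genes called there leave little to read from that count. Within stroma, Smad3 in P-SSC-like cells was the only call of the list over the 3 class comparisons (1.28, SE 0.41, edgeR adjusted p = 0.0356). The 9 inhibitors went both ways, with 4 higher and 4 lower in stroma, beside the same share of all genes. Smad7, the inhibitory Smad that TGF-β itself is known to induce, was lower in P-SSC-like cells (29.5 and 40.3 CPM, -2.18, SE 0.42, edgeR adjusted p = 0.000973) and higher in chondrocyte-like cells (129 and 217 CPM, 1.48, SE 0.33, adjusted p = 0.00401). In blood it was at 465 and 353 CPM in T/NK cell-like, 430 and 300 CPM in mature B cell-like, and 369 and 251 CPM in precursor B cell-like cells. In T/NK cell-like cells 4 of the 9 inhibitors were higher than in the other blood classes and none lower. Of all genes 11.8% were called in that comparison, 1328 of them higher and 201 lower. Ski, a nuclear corepressor of Smads, was higher in P-SSC-like cells (280 and 168 CPM, 2.41, SE 0.37, edgeR adjusted p = 0.000105).

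All 4 ligand-binding proteoglycans were higher in stroma than in blood, where 62.4% of all genes were called, with a median log2 fold change of 8.55. In P-SSC-like cells Aspn (asporin, 1246 and 1090 CPM, 6.88, SE 0.98, edgeR adjusted p = 4.12e-05) and Dcn (decorin, 6441 and 10062 CPM, 3.22, SE 0.81, adjusted p = 0.00661) were higher. Aspn was at 2.67 and 271 CPM in osteogenic progenitor-like, 0 and 7.29 CPM in osteoblast-like, and 0 and 0.829 CPM in chondrocyte-like cells. The size of its difference is therefore uncertain. Fmod (fibromodulin) was lower in P-SSC-like cells (-3.18, SE 0.81, edgeR adjusted p = 0.0086), but its level differed between libraries, at 0 and 72.2 CPM. Osteoblast-like cells had 53.9 and 160 CPM of Fmod. Fmod was the only listed proteoglycan called higher in chondrocyte-like cells, at 1792 and 930 CPM (4.00, SE 0.59, edgeR adjusted p = 0.000101). Bgn (biglycan) had a higher level there, 1830 and 1627 CPM, but did not differ from other stroma by the test (edgeR adjusted p = 0.481). Of the genes listed as TGF-β targets, Ccn2 (CTGF, 2.53, SE 0.63, edgeR adjusted p = 0.00648) and Tgfbi (2.30, SE 0.48, adjusted p = 0.00184) were higher in chondrocyte-like cells than in other stroma. Osteoblast-like cells had Tgfbi, Ccn2, and Snai2 lower, and P-SSC-like cells had Tgfbi higher. The chondrocyte-like level of Ccn2 (376 and 2121 CPM) differed widely between libraries. In library 1 it was below the P-SSC-like and osteogenic progenitor-like levels (1054 and 621 CPM), and in library 2 above them (364 and 253 CPM).

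For each gene, the genes with the most similar pattern were found by Pearson's r of log2(CPM + 10) over the 12 classes of the fit, as a description without a test, since classes share their library and depth. The closest were Mbtd1 for Tgfb1 (r = 0.92), Slc7a2 for Tgfb2 (r = 0.996), and Plekhh3 for Tgfb3 (r = 0.97). For the latent binding proteins they were Dchs1 for Ltbp1 (r = 0.994), Chl1 for Ltbp2 (r = 0.992), Wnt5a for Ltbp3 (r = 0.99), and Dpt, itself a P-SSC marker, for Ltbp4 (r = 0.998). For the receptors they were Ythdf3 for Tgfbr1 (r = 0.948), Klhl28 for Tgfbr2 (r = 0.938), and P4ha3 for Tgfbr3 (r = 0.97). Among the 10 genes themselves, Ltbp1 and Ltbp4 (r = 0.916), Ltbp2 and Tgfbr3 (r = 0.915), and Ltbp1 and Ltbp3 (r = 0.911) had the most similar patterns, and Tgfb1 and Tgfb2 the most opposed (r = -0.45).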

How the data were processed

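The authors ran the libraries through Cell Ranger 6.1.2, and the submitters' processing notes name the mm10 build. They deposited raw UMI counts per gene and barcode, without normalization or filtering on genes or mitochondrial counts. Barcodes with at least 500 genes, at least 500 UMIs, and at most 10% mitochondrial UMIs were kept. Integration used Seurat 5.3.0 under R 4.3.3 ( 3000 variable genes, 30 anchor dimensions, 15 components, resolution 0.8). The 10 genes and the 41 pathway genes were left out of clustering and naming. A class needed 3 markers at a log2 fold of at least 1 in at least 20% of cells. Doublets were called with Scrublet (scanpy 1.11.5; 124 cells in library 1 and 1 in library 2, under 0.5% of cells in the latter, where the caller may not have worked) and left out only as an alternative.

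UMI counts were summed per class and library (24 sums of 12 classes, at least 10 cells each) and tested with edgeR 4.0.16 (quasi-likelihood, TMM, filterByExpr, Benjamini-Hochberg, threshold 0.05), after a check on simulated counts. Same-numbered sums come from the same library, so the replicate number pairs them. Their deviations correlated with a median r of 0.19 over 66 pairs of classes (0.05 to 0.51). Alternatives were DESeq2 1.42.0, RLE, no filter, the replicate block, resolutions 0.4 and 1.2, no integration, doublets left out, skeletal muscle-like cells as stroma, each library alone, and 3 settings added after the data had been seen (unnamed stromal clusters as classes, at least 5 cells per library, osteogenic progenitor-like cells left out). All 10 genes are named, and of the pathway lists up to 4 genes per list and comparison that passed, except 1 listed gene that is not reported here. The genes and lists were chosen with earlier results of these data known.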

Additional observations from a re-analysis of the deposited data

Results flagged for a closer look

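The barcodes removed by the filters, which no comparison uses, still held UMIs of the 10 genes, above the limit that a count of 0 allows. In library 1, 3656 removed barcodes held 471 such UMIs, 53.8 CPM against 221 CPM in kept cells, and the limit was 0.343 CPM. In library 2, 766 removed barcodes held 209 UMIs, 81.6 CPM against 469 CPM in kept cells. These were 2.26% and 1.43% of all UMIs of the 10 genes.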

How the results depend on the processing

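Each result was recomputed under 9 planned settings with a test and 3 added ones, and from each library alone. With the library as a replicate block, 64 of 73 results kept their direction and their side of the threshold, 8 passed it newly, and 1 no longer did. At resolution 0.4, 59 of 73 kept both, 2 passed newly, 7 no longer did, and 5 turned direction. From 1 library alone, with no test, fewer were kept. Only 22 of 53 results were rated the same without library 1, and 14 of 53 without library 2. The count of called genes among the 10 changed by more than 1.5 times in these cases. For osteoblast-like cells it was 3 and became 5 with the replicate block, at resolution 1.2, and without osteogenic progenitor-like cells. For chondrocyte-like cells it was 5 and became 3 with DESeq2, 1 with skeletal muscle-like cells as stroma (where the test cannot decide for Ltbp1), and 3 with unnamed clusters as classes. The cause of these changes was not tested.

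Over all genes, calls among stroma rose from 3669 to 6405 with skeletal muscle-like cells and 6408 with unnamed clusters. For P-SSC-like cells 2440 became 3705 with the replicate block, 1210 at resolution 0.4, and 1584 with at least 5 cells per library. For osteoblast-like cells 1111 became 1910 with the block and 1873 with skeletal muscle-like cells, for chondrocyte-like cells 2086 became 3215 and for T/NK cell-like cells 1529 became 2397 with the block.

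Directions turned only in differences that had not passed the threshold. In osteoblast-like cells these were Ltbp1 (-0.086) and Ltbp3 (-0.36) at resolution 0.4, and Ltbp3 (-0.77) and Tgfbr2 (0.055) with unnamed clusters. In chondrocyte-like cells Ltbp2 was -0.21 with DESeq2, -0.0055 with RLE, -1.57 at resolution 0.4, -0.72 without integration, and -1.14 with at least 5 cells. Tgfbr3 was -1.23, -0.57, and -0.29 in the last 3 of these settings, Tgfb1 0.79 with skeletal muscle-like cells and 0.25 with at least 5 cells, and Tgfbr2 0.27 with unnamed clusters. In T/NK cell-like cells Tgfbr1 was -0.011 with DESeq2 and -0.059 at resolution 0.4. The T/NK cell comparison could not be made without integration. With 1 to 25 UMIs behind many latent binding protein and Tgfbr3 levels outside P-SSC-like cells, counting error limits their folds.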
